A study of Rattus norvegicus with 24 samples.

Results

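The genes described here carry glucose and lactate across the cell membrane and break glucose down to pyruvate and lactate. They also set the speed of that breakdown and govern whether pyruvate is oxidised inside the mitochondrion. They were taken by symbol from a list of 32 genes: the carriers Slc2a1, Slc2a2, Slc2a3, Slc16a1 and Slc16a3, the enzymes of glycolysis from hexokinase to lactate dehydrogenase, the PFKFB family, the PDK family and G6pc2. Of the 32, 25 were matched in the deposited tables, and 23 of these had a mean of at least 10 scaled read counts over the 24 libraries. These 23 genes, of 26404 in the tables, are the glycolytic set of this account. A scaled read count is the number of reads of a gene after all 24 libraries were brought to a common depth, and it compares libraries, not genes, since transcript lengths were not used.

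The cells were INS-1, an insulin-secreting line from a rat insulinoma used in place of the pancreatic beta cell. Cells were kept in medium with 3 mM glucose during 90 min, received fresh medium with 11 mM glucose, and were then given GLP-1 at 100 nM, BMS-21 at 1 µM or the vehicle DMSO (Control). RNA was collected 1 h or 6 h later, with 4 libraries for each treatment and time. All 6 groups therefore shared the step from low to high glucose. GLP-1 comes from the gut and acts on a beta cell receptor coupled to cAMP, and BMS-21 is named in the labels by its code only. The line is a tumour line, and the labels do not say whether the 4 libraries of a group came from separate cultures, so the p-values measure the spread between these libraries, which may be technical.

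In rat beta cells glucose enters mainly through the low-affinity carrier GLUT2 (Slc2a2), is phosphorylated and runs through glycolysis to pyruvate, most of which is oxidised in mitochondria to the ATP that triggers insulin release. Lactate dehydrogenase and the plasma membrane lactate carrier MCT1 (Slc16a1) are known to be kept low in beta cells, which directs pyruvate away from lactate. Phosphofructokinase is the main control point of the pathway, and the PFKFB enzymes make and remove its sugar bisphosphate activator. The PDK kinases switch off pyruvate dehydrogenase, which commits pyruvate to oxidation inside the mitochondrion.

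The libraries held 10667350 to 13148970 reads assigned to genes. At that depth a count of 3 reads corresponded to 0.228 to 0.281 RPM, a limit that covers counting error only. All 8 beta cell markers matched by symbol, of the 10 listed, had a mean of at least 10, whereas 6 of 7 exocrine acinar markers, 7 of 8 stromal, endothelial and immune markers, and the islet hormone genes Sst and Ppy did not, and Cela1 and Pnlip had 0 reads. G6pc2, a listed marker and a listed member, had no match by symbol. The entry found by its gene identifier held 1 read summed over the 24 libraries. The summed level of the beta cell markers, most of it Ins1 and Iapp, moved with treatment at 6 h: it ranged between 186438 and 200318 scaled counts in GLP-1 libraries, between 190050 and 224034 in BMS-21 libraries and between 166761 and 176301 in Control libraries. Single markers went both ways in limma at 6 h. GLP-1 raised 2 of the 8 and lowered 3, where 16.2% of all genes were higher and 15.6% lower. BMS-21 raised 3 and lowered 3, where 16.8% were higher and 16.8% lower. The summed duct markers, carried by Krt7 and Sox9, were 678 to 766 in GLP-1 libraries, 589 to 715 in BMS-21 libraries and 741 to 887 in Control libraries at the same time. At 1 h the duct marker Sox9, at low counts, was higher in limma with both treatments (1.09 ± 0.26 on the log2 scale with GLP-1, adjusted p = 0.0152, and 0.89 ± 0.22 with BMS-21, 0.0137), at 50.1 ± 15.0 scaled counts with GLP-1, 42.4 ± 4.83 with BMS-21 and 23.5 ± 8.91 in Control (SD, n = 4 each), while the summed duct markers overlapped at 930 to 1095 with GLP-1, 840 to 991 with BMS-21 and 846 to 1055 in Control. The part of these markers in the results was not tested. In every group the libraries of replicates 1 and 2 stood apart from those of replicates 3 and 4 on the first principal component, and the labels name no batch.

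At 1 h the glycolytic set had changed little apart from lactate dehydrogenase B. After GLP-1, 4 of the 23 genes were higher (Ldhb, Pfkfb3, Aldoa and Pgam1) and 0 were lower at an adjusted p below 0.05 in limma, where 4.17% of the 12715 genes tested were higher and 2.41% lower. At an unadjusted p below 0.05, 2 were lower, and edgeR and DESeq2 called 0 lower. After BMS-21, 1 of 22 tested was higher (Ldhb) and 1 was lower (Pklr), where 3.54% of 12697 genes were higher and 2.37% lower. The median log2 change of the set was 0.03 for GLP-1 and 0.05 for BMS-21, beside 0.00 over all genes tested in each comparison. With the replicate number as a block, which compares libraries of the same number with each other, 7 and 6 members passed the threshold in place of 4 and 2: Pfkl, Pfkp and Pklr joined for GLP-1, and Aldoa, Pfkfb3, Pgam1 and Eno1 for BMS-21. When libraries were scaled by their total reads, all genes split into 449 higher and 506 lower for GLP-1, in place of 530 and 307, and into 380 higher and 445 lower for BMS-21, in place of 450 and 301, and of the members called only Pgam1 was lost. In these cultures a lower count cannot be told apart from fewer cells that use the gene, nor a higher one from more of them.

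By 6 h the set had split. After GLP-1, 7 of 23 genes were higher and 6 were lower, where 16.2% of 12641 genes tested were higher and 15.6% lower. After BMS-21 the counts were also 7 higher and 6 lower, where 16.8% of 12640 genes were higher and 16.8% lower. The higher genes were Slc2a1, Pfkl, Pfkp, Aldoa, Pgk1, Pgam1 and Ldhb in both comparisons. The lower genes were Slc2a2, Pfkm, Pklr, Pdk1 and Pdk2 in both, with Aldoc in the GLP-1 comparison and Pfkfb4 in the BMS-21 comparison. The medians were -0.01 for GLP-1 and 0.03 for BMS-21, beside 0.00 over all genes tested in each. Scaling by total reads gave 1451 genes higher and 2960 lower for GLP-1, in place of 2044 and 1967, and 1510 higher and 3068 lower for BMS-21, in place of 2125 and 2128. Under it the 13 member calls of each comparison stayed past the threshold in the same direction, and Gpi and Pfkfb2 passed as lower with both treatments and Aldoc as lower with BMS-21. The comparisons with GLP-1 and with BMS-21 used the same Control libraries, so the 2 sets of calls are not independent of each other.

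**Figure D1:**
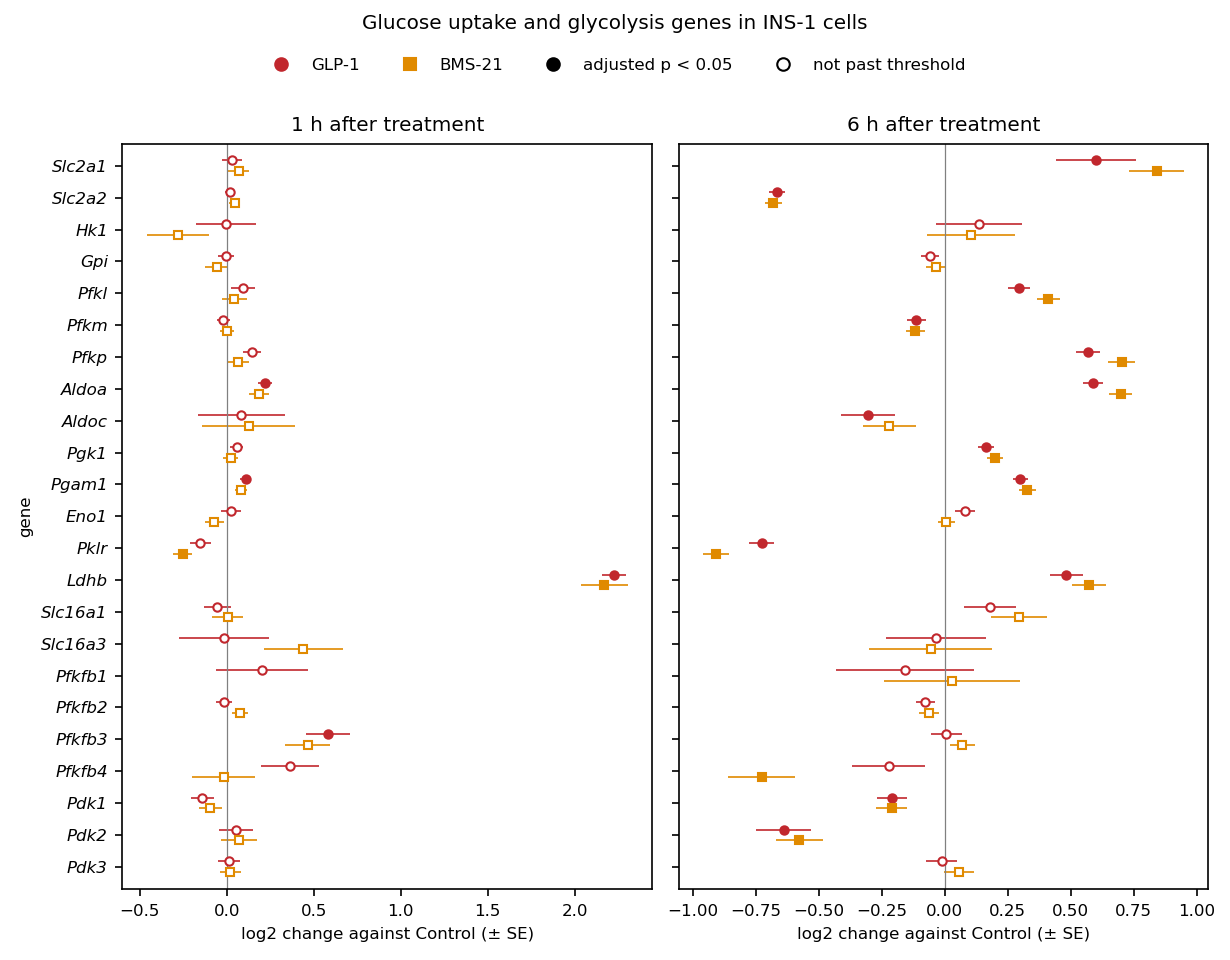
Log2 change of each of the 23 genes against Control (horizontal axis, points with standard errors, n = 4 libraries a group) at 1 h in the left panel and 6 h in the right panel, for GLP-1 (circles) and BMS-21 (squares); filled symbols passed an adjusted p below 0.05 in limma, and Pfkfb1 was not tested for BMS-21 at 1 h. Ldhb stands apart at 1 h with changes of 2.22 and 2.17, while at 6 h 7 genes lie to the right of 0 and 6 to the left with filled symbols for each treatment.

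The sequences before the start sites of 4 genes are given because these genes carry the early rise (Ldhb, Pfkfb3), the later rise (Slc2a1) and the fall (Pklr) described next. Each line shows the 250 bases upstream of the RefSeq start in the rat build GRCr8, 5′ to 3′ on the strand of the gene. The read counts were made on an earlier build, so no position of the files is used. Capitals mark matches on either strand to ACGTG, the core of the site bound by hypoxia-inducible factors, to CACGTG, the E-box that contains it, to CACGGG, a piece of the carbohydrate response element, to TGACG, a piece of the cAMP response element, and to the full element TGACGTCA that contains it.
Ldhb, chr4:177177409-177177658, minus strand: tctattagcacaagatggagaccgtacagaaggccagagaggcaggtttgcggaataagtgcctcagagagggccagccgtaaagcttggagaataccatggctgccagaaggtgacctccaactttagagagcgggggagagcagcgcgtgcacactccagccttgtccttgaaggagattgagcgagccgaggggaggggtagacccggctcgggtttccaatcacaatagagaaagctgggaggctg
Pfkfb3, chr17:71944683-71944932, plus strand: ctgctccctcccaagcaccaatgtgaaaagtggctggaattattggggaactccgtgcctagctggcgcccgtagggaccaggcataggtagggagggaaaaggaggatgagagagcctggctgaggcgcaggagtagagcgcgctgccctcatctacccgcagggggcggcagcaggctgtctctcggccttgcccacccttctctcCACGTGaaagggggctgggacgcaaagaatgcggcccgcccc
Slc2a1, chr5:138002272-138002521, plus strand: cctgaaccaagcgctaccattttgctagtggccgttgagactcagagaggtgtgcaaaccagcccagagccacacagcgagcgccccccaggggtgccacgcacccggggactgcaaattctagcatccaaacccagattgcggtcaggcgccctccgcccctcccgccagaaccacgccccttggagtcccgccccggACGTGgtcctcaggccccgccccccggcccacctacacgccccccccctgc
Pklr, chr2:176841014-176841263, plus strand: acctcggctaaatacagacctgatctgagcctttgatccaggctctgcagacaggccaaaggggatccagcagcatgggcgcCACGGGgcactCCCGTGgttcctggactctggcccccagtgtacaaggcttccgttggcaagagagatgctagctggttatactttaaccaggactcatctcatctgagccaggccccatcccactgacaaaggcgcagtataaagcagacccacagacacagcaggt
None of the searched motifs was found in the Ldhb window, which does hold the unsearched form GCGTG. Pfkfb3 held CACGTG 42 bases before the start, Slc2a1 held ACGTG 51 bases before it, and Pklr held CACGGG at 168 and 157 bases before it. In the RefSeq table, 22 of the 23 genes had an entry (Pgk1 did not). Of these, 10 (45.5%) held ACGTG, against 16.6% of all 33469 windows, 3 (13.6%) held CACGTG against 5.59%, 4 (18.2%) held CACGGG against 8.05%, 3 (13.6%) held TGACG against 18.2%, and 0 held TGACGTCA against 1.59%. A member counted if any entry of its symbol matched, while the 33469 windows were counted singly, whatever the level of their genes in these cells. The difference between these shares was not tested. These are matches of letters in a short window, and binding was not measured.

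Among the glucose carriers, Slc2a2, which encodes GLUT2, the main carrier of the rat beta cell, fell at 6 h, while Slc2a1, which encodes the high-affinity carrier GLUT1, rose. At 6 h Slc2a2 had 13034, 14028, 13125 and 13896 scaled counts in GLP-1 libraries, 13506, 14123, 13071 and 12985 in BMS-21 libraries, and 21157, 22206, 20892 and 21778 in Control libraries. Every treated library was below every Control library. The gene decreased by 37.0% with GLP-1 (log2 change -0.67 ± 0.03, SE; adjusted p = 7.97e-13) and decreased by 37.6% with BMS-21 (-0.68 ± 0.03; adjusted p = 9.86e-13). At 1 h its levels had been 21292, 21942, 20400.3 and 21968 in GLP-1 libraries, 21739.7, 22303, 20823 and 22386 in BMS-21 libraries and 20941, 21942, 20566 and 21231 in Control libraries, and the groups overlapped. The intervals of the 1 h changes, -0.04 to 0.08 for GLP-1 and -0.02 to 0.11 for BMS-21 (95%), did not reach the size of the 6 h change.

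Slc2a1 at 6 h stood at 1135, 1044, 1734 and 1268 scaled counts in GLP-1 libraries, at 1452, 1250.2, 1859.7 and 1515 in BMS-21 libraries and at 839, 794, 903 and 824 in Control libraries. All treated libraries exceeded all Control libraries, and replicate 3 was the highest of its group in each. The increase was 1.52-fold with GLP-1 (log2 0.60 ± 0.16; adjusted p = 0.0278) and 1.79-fold with BMS-21 (0.84 ± 0.11; adjusted p = 0.000426). The GLP-1 call was lost without GLP-1 replicate 4 or without any of the 4 Control libraries (adjusted p 0.0510 to 0.0740), and in replicates 3 and 4 alone (0.160), with the direction kept. Earlier, at 1 h, Slc2a1 had 696, 653, 765 and 785 in GLP-1 libraries, 768, 683, 839.7 and 691 in BMS-21 libraries and 703, 665, 746 and 726 in Control libraries, which overlapped. Slc2a3, the neuronal GLUT3, was not matched and is not analysed here.

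**Figure D2:**
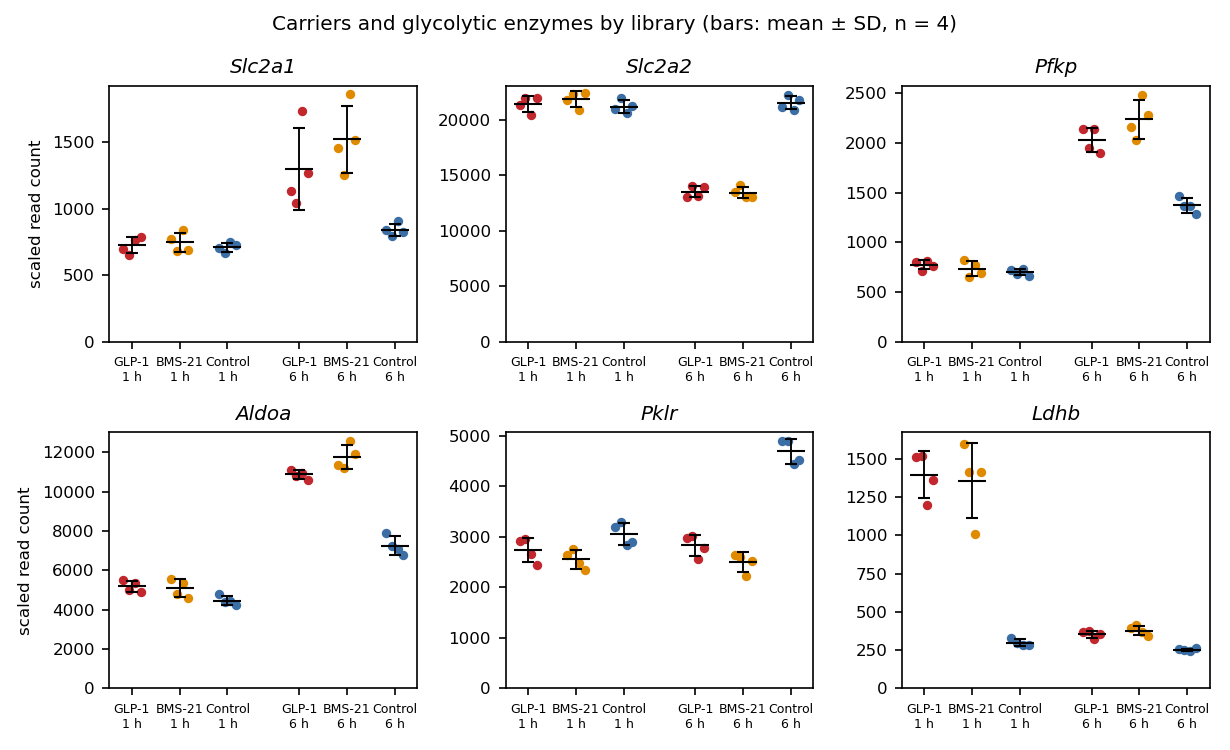
Scaled read counts (vertical axis, from 0) of 6 genes in each of the 24 libraries, by treatment and time; points are libraries and bars the mean with SD (n = 4). At 6 h Slc2a2 and Pklr are lower, and Slc2a1, Pfkp and Aldoa higher, in every GLP-1 and BMS-21 library than in every Control library, and Ldhb reaches 1010 to 1593 counts in the treated libraries at 1 h against 280 to 328 in Control.

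Hexokinase and glucose 6-phosphate isomerase, which take the first steps, did not pass in limma against Control. Hk1, a hexokinase with high affinity for glucose, was scarce. Its scaled counts at 1 h were 51.7, 43.5, 44.9 and 32.6 with GLP-1, 36.0, 27.1, 43.1 and 35.6 with BMS-21 and 44.3, 38.0, 35.3 and 56.3 in Control. At 6 h they were 31.0, 35.3, 37.3 and 30.8 with GLP-1, 30.02, 29.3, 35.1 and 37.5 with BMS-21 and 27.6, 26.1, 30.2 and 39.5 in Control. The groups overlapped at both times, and the adjusted p in limma ran between 0.542 and 0.997 over the 4 comparisons with Control. Hk2, another high-affinity hexokinase, stayed under the minimum, with at most 6 reads in a library: its scaled counts at 6 h were 0, 5.05, 0.956 and 1.06 with GLP-1, 2.00, 0.917, 1.00 and 1.92 with BMS-21 and 3.68, 6.02, 4.88 and 1.98 in Control, and at 1 h 3.83, 3.04, 1.04 and 2.03 with GLP-1, 2.00, 2.26, 2.88 and 1.08 with BMS-21 and 3.94, 5.14, 5.88 and 1.04 in Control. Gpi, the isomerase, averaged 8110.2 ± 158 with GLP-1, 8255 ± 143 with BMS-21 and 8476 ± 441 in Control at 6 h (SD, n = 4 each), with log2 changes of -0.06 ± 0.04 (adjusted p = 0.224) and -0.04 ± 0.04 (0.484). Gpi passed the threshold as lower with GLP-1 at 6 h when the replicate block was added (adjusted p = 0.0165).

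The 3 phosphofructokinase genes, which encode subunits named for liver, muscle and platelet, moved apart at 6 h. Pfkp, the platelet type, had 2137, 1954, 2137 and 1898 scaled counts in GLP-1 libraries, 2157, 2028, 2482 and 2282 in BMS-21 libraries and 1468, 1366, 1365 and 1289 in Control libraries. The treated libraries were all higher than the Control libraries. The gene rose 1.48-fold with GLP-1 (log2 0.57 ± 0.05; adjusted p = 8.06e-09) and 1.63-fold with BMS-21 (0.70 ± 0.05; 6.06e-09). Pfkl, the liver type, had 3412, 3188, 3468 and 3189.8 with GLP-1, 3484, 3412, 3799.7 and 3708 with BMS-21 and 2922, 2752, 2624 and 2539 in Control. Again no treated library overlapped a Control library, and the changes were 0.30 ± 0.04 (adjusted p = 2.03e-05) and 0.41 ± 0.04 (2.82e-07). Pfkm, the muscle type, was slightly lower, at 2105 ± 92.0 with GLP-1, 2104 ± 50.3 with BMS-21 and 2282 ± 72.4 in Control (SD, n = 4 each).

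The Pfkm changes of -0.11 ± 0.04 (adjusted p = 0.0296) and -0.12 ± 0.04 (0.0174) were small and rested on few libraries. For GLP-1 the Pfkm call was lost without GLP-1 replicate 3 or 4 or Control replicate 2 or 4 (adjusted p 0.0618 to 0.101), with DESeq2 (0.0534) and in replicates 1 and 2 alone (0.273), and for BMS-21 without BMS-21 replicate 4 or Control replicate 2 (0.0680 to 0.0700). At 1 h Pfkp had 803, 716, 815 and 766 with GLP-1, 827, 654, 769 and 692 with BMS-21 and 726, 682, 735 and 665 in Control, and Pfkl had 1579, 1403, 1531 and 1296 with GLP-1, 1568, 1351, 1441 and 1258 with BMS-21 and 1517, 1378, 1359 and 1201 in Control. The groups overlapped for both genes, with adjusted p = 0.104 and 0.725 for Pfkp and 0.625 and 0.875 for Pfkl. The replicate block brought the GLP-1 changes at 1 h past the threshold (adjusted p = 0.00957 for Pfkp and 0.0474 for Pfkl), and Pfkp also passed without GLP-1 replicate 2 (0.038).

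Aldolase A (Aldoa), which splits fructose bisphosphate, was raised at both times by GLP-1. At 6 h it had 11122, 10800.2, 10955 and 10617 scaled counts in GLP-1 libraries, 11343, 11220.5, 12589 and 11918 in BMS-21 libraries and 7910.5, 7233, 7102 and 6781 in Control libraries. The treated and Control ranges were far apart. Aldoa rose 1.504-fold with GLP-1 (log2 0.59 ± 0.04; adjusted p = 3.36e-10) and 1.62-fold with BMS-21 (0.70 ± 0.04; 6.09e-10). At 1 h it had 5504, 5022, 5334 and 4901 with GLP-1, 5579.7, 4819, 5339 and 4586 with BMS-21 and 4789, 4394, 4448 and 4223 in Control, so that the GLP-1 libraries lay above the Control libraries and the BMS-21 libraries overlapped them. The 1 h change was 0.22 ± 0.04 with GLP-1 (adjusted p = 0.000497) and 0.19 ± 0.06 with BMS-21 (0.0765). For BMS-21 it passed with the replicate block (adjusted p = 3.84e-10), with DESeq2 (0.0173), with 1 fit over 24 libraries (0.0466), in replicates 1 and 2 (0.021) or 3 and 4 alone (0.0326), and without BMS-21 replicate 4 (0.00449) or Control replicate 1 (0.0283).

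Aldolase C (Aldoc), the brain form, was far less counted and lower with GLP-1 at 6 h. Its scaled counts were 99.9, 89.9, 92.8 and 76.5 in GLP-1 libraries, 103, 93.5, 102 and 82.7 in BMS-21 libraries and 101, 123, 110.2 and 109.7 in Control libraries. The GLP-1 libraries lay just below the Control libraries, and the BMS-21 libraries overlapped them. The log2 change was -0.30 ± 0.11 with GLP-1 (adjusted p = 0.0349) and -0.22 ± 0.11 with BMS-21 (0.116). The GLP-1 call was lost without GLP-1 replicate 2 or 4 or Control replicate 2, 3 or 4 (adjusted p 0.0546 to 0.125), with no filter (0.0535), with DESeq2 (0.121), with 1 fit over 24 libraries (0.278), and in replicates 1 and 2 (0.237) or 3 and 4 alone (0.057). At 1 h Aldoc had 71.8, 67.8, 55.3 and 42.7 with GLP-1, 65.9, 81.3, 44.1 and 55.0 with BMS-21 and 66.0, 87.4, 41.1 and 38.6 in Control, and the groups overlapped widely.

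In the lower part of the pathway the mutase Pgam1 and the kinase Pgk1 rose and the liver-type pyruvate kinase Pklr fell. Pgam1 at 6 h had 9452, 9381, 9758 and 9532 scaled counts with GLP-1, 9500.4, 9459.8, 10049.8 and 9969 with BMS-21 and 7833, 7503, 7972 and 7739.6 in Control. No treated library overlapped a Control library, and the log2 changes were 0.30 ± 0.03 for GLP-1 (adjusted p = 7.23e-08) and 0.33 ± 0.03 for BMS-21 (5.38e-08). At 1 h Pgam1 had 6437, 6039.7, 6314 and 6212 with GLP-1, 6419.6, 5829, 6207 and 6093 with BMS-21 and 5819.7, 5738, 5695 and 5966 in Control. The GLP-1 libraries stood just above Control (0.11 ± 0.03; adjusted p = 0.0327), and this call was lost without GLP-1 replicate 1, 3 or 4 or Control replicate 1, 2 or 3 (0.0726 to 0.131), with scaling by total reads (0.15) and in replicates 3 and 4 alone (0.152). The BMS-21 change of 0.08 ± 0.03 did not pass (0.227), but did with the replicate block (0.00413).

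Pgk1, phosphoglycerate kinase, averaged 5277 ± 124 with GLP-1, 5424 ± 72.3 with BMS-21 and 4722 ± 123 in Control at 6 h (SD, n = 4 each). Its changes were small but called, at 0.16 ± 0.03 (adjusted p = 0.000429) and 0.20 ± 0.03 (4.26e-05). Enolase 1 (Eno1) averaged 7931 ± 452 with GLP-1, 7540 ± 235 with BMS-21 and 7509 ± 282 in Control, with changes of 0.08 ± 0.04 (adjusted p = 0.122) and 0.01 ± 0.04 (0.91). Blocked by replicate, Eno1 passed as higher with GLP-1 at 6 h (0.000535) and as lower with BMS-21 at 1 h (0.017), and without GLP-1 replicate 3 it also passed at 6 h (0.0339). Reads of Aldoa, Pgk1, Pgam1 and Eno1 may be shared with close copies of these genes elsewhere in the genome and are uncertain to that extent.

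Pklr, which encodes the liver and red cell pyruvate kinase and is known as a glucose-induced gene in liver and beta cells, showed the deepest fall of the set with both treatments. At 6 h it had 2985, 3015, 2557 and 2771 scaled counts in GLP-1 libraries, 2645, 2609, 2223 and 2526 in BMS-21 libraries and 4906, 4891, 4450.2 and 4525 in Control libraries. The highest treated library was far below the lowest Control library. Pklr decreased by 39.6% with GLP-1 (log2 -0.73 ± 0.05; adjusted p = 7.06e-09) and decreased by 46.8% with BMS-21 (-0.91 ± 0.05; 3.54e-10). At 1 h it already stood at 2913, 2955, 2658 and 2447 with GLP-1 and 2645, 2766, 2489 and 2335 with BMS-21, against 3191, 3291, 2834 and 2899 in Control. The BMS-21 libraries were all below Control (-0.25 ± 0.06; adjusted p = 0.00847), while the GLP-1 libraries overlapped Control (-0.15 ± 0.06; 0.215). The GLP-1 change at 1 h passed too under the replicate block (5.79e-06). In the RefSeq annotation of GRCr8 the span of Pklr overlaps Hcn3, that of Pfkm Senp1 and that of Slc16a3 Csnk1d, and since strand was not kept in the libraries, reads of such neighbours cannot be told apart with certainty.

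Ldhb, which encodes the heart-type subunit of lactate dehydrogenase, gave the steepest response of the set, and it came early. At 1 h it had 1509, 1519, 1195 and 1359 scaled counts in GLP-1 libraries, 1593, 1412, 1010.4 and 1413 in BMS-21 libraries and 328, 297, 286 and 280.3 in Control libraries. The lowest treated library held more than the highest Control library by a wide gap. The rise was 4.67-fold with GLP-1 (log2 2.22 ± 0.07; adjusted p = 7.37e-16) and 4.499-fold with BMS-21 (2.17 ± 0.14; 2.31e-05). By 6 h it had 366, 373, 319 and 356 with GLP-1, 391, 412, 366 and 341 with BMS-21 and 256, 249.7, 246 and 261 in Control, still without overlap. The remaining rise was 1.40-fold with GLP-1 (0.48 ± 0.07; adjusted p = 6.78e-06) and 1.49-fold with BMS-21 (0.57 ± 0.07; 7.54e-07). Its partner Ldha, the muscle-type subunit, was not matched and is not analysed here.

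The lactate carriers did not pass in limma against Control, though Slc16a1 passed at 6 h with BMS-21 under several alternatives. Slc16a1, which encodes MCT1, had 237, 235, 274 and 295 scaled counts with GLP-1, 261, 244, 299 and 329 with BMS-21 and 209.8, 195, 238 and 284 in Control at 6 h. The groups overlapped, and in each of them replicates 3 and 4 were higher than replicates 1 and 2. The log2 changes were 0.18 ± 0.10 with GLP-1 (adjusted p = 0.205) and 0.30 ± 0.11 with BMS-21 (0.0522). Both passed with the replicate block (0.0256 and 0.000542) and without Control replicate 4 (0.0285 and 0.00475), and the BMS-21 change also passed without BMS-21 replicate 2 (0.0166), with DESeq2 (0.0449), with 1 limma fit over 24 libraries (0.0466), in replicates 1 and 2 alone (0.00873) and in replicates 3 and 4 alone (0.0245). At 1 h the gene had 264, 259, 308 and 300.1 with GLP-1, 259, 262, 349.9 and 316 with BMS-21 and 308, 262, 299.8 and 306 in Control. Slc16a3, which encodes the lactate exporter MCT4, held 11 to 26 reads in a library, and its group means at 6 h were 19.1 ± 2.07 with GLP-1, 19.7 ± 6.29 with BMS-21 and 19.7 ± 2.55 in Control (SD, n = 4 each).

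Of the PFKFB genes, Pfkfb3, whose product favours making the activator of phosphofructokinase, was raised early by GLP-1. At 1 h it had 1319, 1289.9, 1046 and 1200.5 scaled counts with GLP-1, 1227, 1205, 962 and 1099 with BMS-21 and 901, 953, 679 and 741 in Control. Both treated groups lay above Control, the BMS-21 group only just. The change was 1.49-fold with GLP-1 (log2 0.58 ± 0.13; adjusted p = 0.0394) and 0.47 ± 0.13 on the log2 scale with BMS-21 (0.108). The GLP-1 call was lost without GLP-1 replicate 1, 2 or 4 or Control replicate 4 (0.0933 to 0.110). The BMS-21 change passed with the replicate block (1.14e-17), without Control replicate 2 (0.0359) and with DESeq2 (0.0202). It also passed with 1 limma fit over 24 libraries (0.00775), in replicates 1 and 2 alone (1.57e-09) and in replicates 3 and 4 alone (3.69e-07). At 6 h it had 1060.1, 1222, 938 and 1115 with GLP-1, 1037, 1241, 1105 and 1146 with BMS-21 and 1034, 1124, 1047 and 1104 in Control, and the groups overlapped (0.01 ± 0.06 and 0.07 ± 0.05).

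Pfkfb4, another bifunctional isoform, went the other way at 6 h with BMS-21. Its scaled counts were 55.0, 81.8, 51.6 and 49.9 with GLP-1, 45.0, 44.9, 39.1 and 35.6 with BMS-21 and 66.3, 71.2, 65.3 and 71.2 in Control. All BMS-21 libraries were below all Control libraries, and in the GLP-1 group replicate 2 stood above the others and above Control. Pfkfb4 decreased by 39.6% with BMS-21 (log2 -0.73 ± 0.13; adjusted p = 0.00017), while the GLP-1 change was -0.22 ± 0.14 (0.263) with that library and -0.38 (adjusted p = 0.0286) without it. Its counts at 1 h were 49.8, 46.5, 43.8 and 38.7 with GLP-1, 34.0, 35.0, 28.8 and 38.8 with BMS-21 and 43.3, 38.0, 30.4 and 28.1 in Control, with overlap. Pfkfb2, the heart isoform, averaged 1248 ± 32.3 with GLP-1, 1263 ± 39.3 with BMS-21 and 1321 ± 36.9 in Control at 6 h. Pfkfb1, the liver isoform, was the member nearest the minimum, with a mean of 12.8 over all libraries and of 8.23 in the BMS-21 group at 1 h, and was not tested in the comparison of that group with Control. Neither passed in limma against Control.

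Among the PDK kinases, Pdk2 and Pdk1 fell at 6 h and Pdk3 did not pass the test. Pdk2, the most widely expressed of the kinases, had 85.9, 92.9, 110 and 76.5 scaled counts with GLP-1, 94.1, 89.8, 96.3 and 99.0 with BMS-21 and 157, 142, 131 and 138 in Control. All treated libraries were below all Control libraries. Pdk2 decreased by 35.8% with GLP-1 (log2 -0.64 ± 0.11; adjusted p = 0.000118) and decreased by 33.0% with BMS-21 (-0.58 ± 0.09; 5e-05). At 1 h it had 114, 109, 109 and 124 with GLP-1, 117, 98.3, 123 and 124 with BMS-21 and 105, 104, 122 and 108 in Control, which overlapped.

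Pdk1, known as a target of hypoxia-inducible factor, had 551, 563, 516 and 513 with GLP-1, 531, 574, 539.7 and 501 with BMS-21 and 677, 653, 576 and 582 in Control at 6 h. The treated libraries lay just below the Control libraries, and the changes were -0.21 ± 0.06 (adjusted p = 0.0096) and -0.21 ± 0.06 (0.0101). In replicates 3 and 4 alone neither passed (0.0585 and 0.0839), and the BMS-21 call was lost without Control replicate 1 (0.0516). At 1 h Pdk1 had 470.2, 489.6, 424 and 425 with GLP-1, 495, 490.2, 438 and 444 with BMS-21 and 518, 546, 475 and 459 in Control, with overlap. Pdk3 averaged 536 ± 48.5 with GLP-1, 563 ± 40.5 with BMS-21 and 541 ± 27.1 in Control at 6 h (adjusted p = 0.903 and 0.509). Pdk4, the isoform induced by fasting in muscle, had at most 6 reads in a library and a mean of 3.10 scaled counts.

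**Figure D3:**
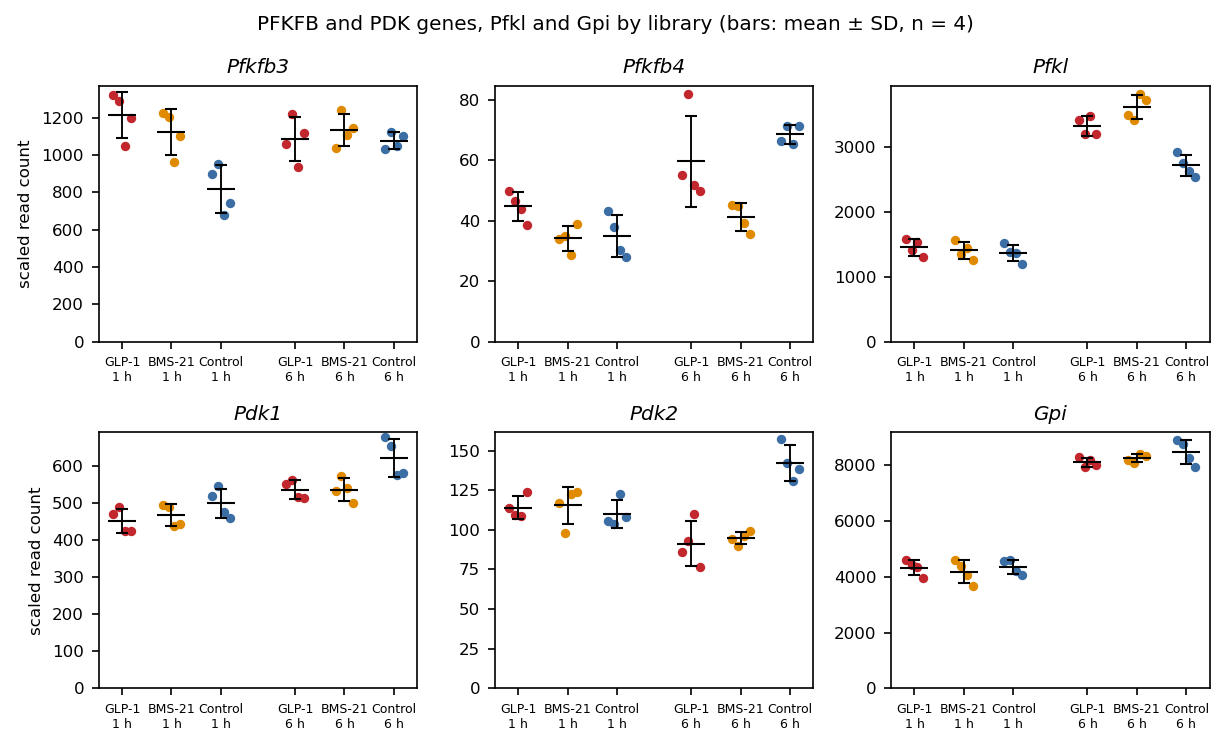
Scaled read counts (vertical axis, from 0) of Pfkfb3, Pfkfb4, Pfkl, Pdk1, Pdk2 and Gpi in each of the 24 libraries, by treatment and time; points are libraries and bars the mean with SD (n = 4). Pfkfb3 is above Control in the treated libraries at 1 h and overlaps it at 6 h, Pdk1 and Pdk2 are lower in them at 6 h, and Gpi and Pfkl are higher at 6 h than at 1 h in all groups including Control.

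The Control libraries themselves changed between the 2 times, after the shared move to high glucose. In Control at 6 h against Control at 1 h, 15 of 23 genes were higher and 2 lower in edgeR on the recovered reads, where 26.0% of 13114 genes tested were higher and 26.9% lower. The median log2 difference was 0.36, beside -0.01 over all genes. Gpi averaged 8476 ± 441 scaled counts in Control at 6 h and 4354 ± 261 in Control at 1 h (log2 0.96 ± 0.05; adjusted p = 4.01e-14). Pfkl (0.98 ± 0.07), Pfkp (0.96 ± 0.07), Pfkfb4 (0.96 ± 0.15) and Aldoc (0.92 ± 0.18) rose by about as much. Aldoa (0.70 ± 0.05), Pklr (0.61 ± 0.07), Pgam1 (0.41 ± 0.03), Eno1 (0.41 ± 0.06), Pfkfb3 (0.39 ± 0.11), Pdk2 (0.36 ± 0.10), Pdk3 (0.36 ± 0.06), Pdk1 (0.31 ± 0.06), Pgk1 (0.24 ± 0.04) and Pfkfb2 (0.10 ± 0.04) rose by less.

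The lower genes in this comparison were Hk1 (-0.50 ± 0.18, adjusted p = 0.0174) and Slc16a1 (-0.35 ± 0.12, adjusted p = 0.0129). Slc2a2 averaged 21508 ± 595 in Control at 6 h and 21169.9 ± 582 in Control at 1 h (adjusted p = 0.704). Hk1 was lost without Control 1 h replicate 4 or Control 6 h replicate 1 or 2 (0.0532 to 0.117), Slc16a1 without Control 6 h replicate 2 (0.0529), and Pfkfb2 without Control 1 h replicate 3 or 4 or Control 6 h replicate 1, 3 or 4 (0.0524 to 0.225). Under the replicate block, Slc2a1 passed as higher (0.034) and Ldhb as lower (0.0213). The summed stromal, endothelial and immune markers, of which Pdgfra alone had a mean of at least 10, were 156 to 160 scaled counts in Control at 6 h and 308 to 395 in Control at 1 h, and the duct markers were 741 to 887 in Control at 6 h and 846 to 1055 in Control at 1 h, and their part in these differences was not tested. Time after the glucose step and time in fresh medium cannot be told apart here.

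Set against these values in Control, the treated cells at 6 h did not all move the same way relative to the course over time. Pfkp, Pfkl, Aldoa, Pgam1 and Pgk1 were higher at 6 h in Control and higher still with GLP-1 and BMS-21. Pklr, Pdk1 and Pdk2 were higher at 6 h in Control and lower than Control in both treatments. Pklr averaged 2832 ± 213 scaled counts at 6 h and 2743 ± 237 at 1 h with GLP-1, and 2501 ± 192 at 6 h and 2559 ± 187 at 1 h with BMS-21, against 4693 ± 239 at 6 h and 3054 ± 222 at 1 h in Control (SD, n = 4 each). Slc2a2 did not pass between the times in Control and was lower than Control in both treatments at 6 h.

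The difference between the 6 h and the 1 h response was tested as an interaction in edgeR over all 24 libraries. For GLP-1 it was positive for 4 of 23 genes and negative for 5, where 8.30% of 13114 genes were positive and 9.01% negative. For BMS-21 it was positive for 6 and negative for 5, where 10.8% were positive and 10.9% negative. Ldhb had the most negative value for each treatment (-1.75 ± 0.18 for GLP-1, adjusted p = 5.21e-07, and -1.61 ± 0.18 for BMS-21, 1.24e-06) and was called higher at both times with each. Slc2a2 (-0.69 ± 0.05 and -0.72 ± 0.05), Pklr (-0.58 ± 0.10 and -0.65 ± 0.10) and Pdk2 (-0.69 ± 0.14 and -0.66 ± 0.14) were also negative for both. Slc2a1, Pfkp, Aldoa and Pgam1 were positive for both, and Pfkl and Pgk1 for BMS-21. Pfkfb3 was negative for GLP-1 (-0.57 ± 0.15, adjusted p = 0.0112) and, at -0.38 ± 0.15 (0.0747), did not pass for BMS-21, though it did in DESeq2 (0.045).

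Some of these interaction calls were weak. The GLP-1 value of Slc2a1 (0.59 ± 0.20, adjusted p = 0.0461) was lost when any of 12 of the 16 libraries was left out, namely GLP-1 1 h replicates 1 to 3, GLP-1 6 h replicates 3 and 4, Control 1 h replicates 1 to 4 and Control 6 h replicates 1, 2 and 4 (0.0515 to 0.0928). The BMS-21 value of Pfkfb4 (-0.69 ± 0.23, adjusted p = 0.0309) was lost without BMS-21 1 h replicate 2 or 4, BMS-21 6 h replicate 3 or 4 or Control 1 h replicate 3 or 4 (0.0524 to 0.0754) and with DESeq2 (0.059), and that of Pgk1 without BMS-21 1 h replicate 4 (0.0607). Pfkfb4 for GLP-1 passed without GLP-1 6 h replicate 2 (0.00804) or Control 1 h replicate 1 (0.0364). Adding the replicate block, Pgk1 and Pfkfb4 passed for GLP-1, and Pfkfb3, Pfkm, Pfkfb2 and Slc16a1 for BMS-21 (adjusted p 0.00336 to 0.0488).

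BMS-21 and GLP-1 were compared directly, each at its single dose. In limma 0 of 23 genes passed at 1 h, where 0% of 12672 genes tested were called, and 0 of 23 passed at 6 h, where 0.0158% of 12629 were called. At an unadjusted p below 0.05, 2 members passed at 1 h and 5 at 6 h, and edgeR and DESeq2 on the recovered reads each called 0 at both times. With the replicate block, 2 passed at 1 h (Eno1, 0.00158, and Pklr, 0.0156) and 5 at 6 h. Over all genes, 85 of 12672 passed under the block at 1 h and 217 of 12629 at 6 h. At 6 h these were Slc2a1, with a log2 difference of 0.24 (95% interval without the block -0.23 to 0.71), Pfkp, with 0.14 (0.02 to 0.26), Pfkl, with 0.12 (0.03 to 0.20), Aldoa, with 0.11 (0.04 to 0.19), and Pklr, with -0.18 (-0.32 to -0.04). Their blocked adjusted p lay between 2.45e-05 and 0.0190, and each of the 5 differed from Control by more with BMS-21 than with GLP-1.

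For Pfkfb4 at 6 h the BMS-21 libraries were all below the GLP-1 libraries, and the difference was -0.50 ± 0.16 (95% interval -0.84 to -0.16; adjusted p = 0.587). For Ldhb the interval ran over -0.44 to 0.33 at 1 h, and for Slc2a2 over -0.08 to 0.06 at 6 h. The doses were 1 µM of BMS-21 and 100 nM of GLP-1, so a difference in size cannot be told apart from a difference in dose.

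Neighbouring parts of glucose metabolism were read from 8 lists. At 1 h the other hexose carriers and glycolytic isoforms (15 tested) and the gluconeogenesis genes (5 tested) gave 0 calls with either treatment in limma, edgeR and DESeq2, and 0 at an unadjusted p below 0.05. With the replicate block, 1 of the carriers and isoforms passed at 1 h for BMS-21 and 0 for GLP-1, where 1551 and 1513 genes passed in all. The gluconeogenesis genes stayed at 0 for both. Among the hexose carriers and isoforms at 6 h, 6 of 15 tested were higher and 2 lower with GLP-1, and the same counts held with BMS-21. The insulin-dependent carrier Slc2a4 (GLUT4) decreased by 49.2% with GLP-1 (-0.98 ± 0.12, adjusted p = 8.53e-06) and decreased by 52.9% with BMS-21 (-1.09 ± 0.09, adjusted p = 7.1e-09). The monocarboxylate carrier Slc16a7 (MCT2) rose 1.74-fold with GLP-1 (0.80 ± 0.10) and 1.66-fold with BMS-21 (0.73 ± 0.10).

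In the list of glucose-responsive transcription, 3 of 8 tested genes were lower and 0 higher at 1 h with each treatment, where 2.41% of all genes tested were lower with GLP-1 and 2.37% with BMS-21, and 5 were lower and 0 higher at 6 h with each. For both times and treatments edgeR and DESeq2 called 0 of these genes higher, and 0 were higher at an unadjusted p below 0.05. Txnip, which restrains glucose uptake and is among the most glucose-induced genes of the beta cell, averaged 4380.4 ± 205 with GLP-1, 4863 ± 266 with BMS-21 and 14059.5 ± 686 in Control at 1 h. Its log2 change was -1.68 ± 0.04 with GLP-1 and -1.53 ± 0.04 with BMS-21 at 1 h, and -1.11 ± 0.04 and -0.91 ± 0.04 at 6 h. Klf10, a glucose-induced zinc-finger gene, changed by -0.85 ± 0.04 and -0.88 ± 0.04 at 1 h. The Txnip relative Arrdc4 fell by 37.1% with GLP-1 and fell by 36.4% with BMS-21 at 6 h. Mlxipl, which encodes the glucose-sensing factor ChREBP known to act on Pklr and Txnip, had 4989.6 ± 230.4 with GLP-1, 4987 ± 180.4 with BMS-21 and 6859.7 ± 429 in Control at 6 h (-0.45 ± 0.04 and -0.46 ± 0.04), while its 1 h changes did not pass (adjusted p = 0.425 and 0.518).

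In the HIF-1 list at 6 h, GLP-1 raised 5 of 20 genes and lowered 1, and BMS-21 raised 8 and lowered 1. Epas1, which encodes a hypoxia-inducible factor, rose 1.45-fold with GLP-1 (0.54 ± 0.04) and 1.66-fold with BMS-21 (0.73 ± 0.06), and the collagen hydroxylase gene P4ha1 rose by 0.56 ± 0.08 and 0.66 ± 0.06, the GLP-1 call being lost in replicates 3 and 4 alone (0.216). Mxi1, which encodes a Myc antagonist, was the lower gene with each (-0.61 ± 0.07 and -0.58 ± 0.07). Hif1a itself averaged 737 ± 45.7 with GLP-1, 731 ± 36.1 with BMS-21 and 743 ± 67.5 in Control (adjusted p = 0.951 and 0.839). At 1 h 3 were higher and 1 lower with each treatment, beside shares over all tested genes of 4.17% and 2.41% for GLP-1 and of 3.54% and 2.37% for BMS-21. Vegfa, the vascular growth factor gene, rose at that time by 0.39 ± 0.03 with GLP-1 and 0.43 ± 0.03 with BMS-21 on the log2 scale. Also higher were Epas1 with GLP-1 (0.23 ± 0.05, limma adjusted p = 0.00249) and Ddit4 with BMS-21 (1.12 ± 0.17, 0.00913). The Ddit4 call was lost in replicates 3 and 4 alone (0.437). The lower gene was Vhl (-0.31 ± 0.06 with GLP-1, 0.000709, and -0.25 ± 0.06 with BMS-21, 0.0103). Its BMS-21 call was lost without Control replicate 2 or 3 (0.0528 to 0.0541) and in replicates 3 and 4 alone (0.251). Blocked by replicate, 8 of the list passed at 1 h with GLP-1 and 8 with BMS-21, where 1513 of 12715 and 1551 of 12697 genes passed.

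In the list of pyruvate entry and pyruvate dehydrogenase, the phosphatases that undo the PDK reaction moved in opposite directions at 1 h. Pdp1 rose by 0.39 ± 0.06 with GLP-1 and 0.43 ± 0.06 with BMS-21, and Pdp2 fell to 74.0 ± 11.6 scaled counts with GLP-1 and 75.3 ± 3.02 with BMS-21, against 129.7 ± 15.7 in Control. Over the 10 genes of that list, GLP-1 raised 2 and lowered 1 at 1 h, BMS-21 raised 1 and lowered 1, and at 6 h each lowered 2 and raised 0 in limma, edgeR and DESeq2 (at an unadjusted p below 0.05, 0 were higher with GLP-1 and 1 with BMS-21). Pdha1, which encodes the dehydrogenase subunit that PDK phosphorylates, was among the higher genes with GLP-1 at 1 h (0.15 ± 0.04, adjusted p = 0.0328), a call lost without any of 6 libraries (GLP-1 1 h replicates 1, 3, 4 and Control 1 h replicates 1, 2, 3; 0.0618 to 0.136), and also with no filter (0.0522), with scaling by total reads (0.113), with DESeq2 (0.058), with 1 fit over 24 libraries (0.109) and in replicates 3 and 4 alone (0.245), so that DESeq2 called 1 gene of the list higher at 1 h. Those lower at 6 h were Pdp2 (-0.54 ± 0.10 and -0.52 ± 0.09) and the dehydrogenase subunit Pdhb (-0.31 ± 0.05 and -0.45 ± 0.07), while the pyruvate carrier subunit Mpc1 had adjusted p = 0.34 and 0.468. Pyruvate carboxylase (Pc), the other route for pyruvate in beta cells, decreased by 20.5% with GLP-1 and decreased by 23.1% with BMS-21 at 6 h.

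In the shuttles that carry reducing equivalents, GLP-1 raised 4 of 13 genes and lowered 4 at 6 h, and BMS-21 raised 4 and lowered 5. The shuttles had 0 calls at 1 h in limma with either treatment, with 1 gene at an unadjusted p below 0.05 for GLP-1 and 3 for BMS-21, 0 calls in edgeR, and 1 in DESeq2 for BMS-21. With the replicate block, 2 shuttle genes passed at 1 h for GLP-1 and 3 for BMS-21. The numbers of all genes passing under the block stand with the HIF-1 list. Scaling by total reads gave 0 calls for GLP-1 and 1 for BMS-21. The malate-aspartate enzymes Got1 (0.42 ± 0.05 and 0.52 ± 0.05) and Mdh1 (0.21 ± 0.03 and 0.25 ± 0.03) rose, and the dicarboxylate carrier Slc25a10 (-0.47 ± 0.05 and -0.59 ± 0.05) fell. Of 7 pentose phosphate genes, GLP-1 raised 2 and lowered 1 and BMS-21 raised 1 and lowered 2, and of 10 glycogen genes GLP-1 raised 2 and lowered 4 and BMS-21 raised 4 and lowered 3. Of 5 gluconeogenesis genes, GLP-1 lowered 1 and BMS-21 lowered 2, with 0 higher in limma, edgeR and DESeq2 (1 at an unadjusted p below 0.05 for GLP-1 and 0 for BMS-21). Glycogen synthase Gys1 rose by 0.66 ± 0.12 with GLP-1, a call lost in replicates 1 and 2 (0.0663) or 3 and 4 alone (0.176), and by 0.87 ± 0.13 with BMS-21, and the glycogen-targeting phosphatase subunit Ppp1r3b fell (-0.43 ± 0.06 and -0.52 ± 0.06). The glycogen list at 1 h had 1 lower gene with each treatment (Ppp1r3b, -0.55 ± 0.06 and -0.62 ± 0.06) and the pentose phosphate list had 1 lower gene with BMS-21 (Rpia, -0.22 ± 0.06, adjusted p = 0.0234), lost without any of 4 libraries (BMS-21 1 h replicate 1 and Control 1 h replicates 1, 3, 4; 0.0519 to 0.120), with DESeq2 (0.0516) and in replicates 3 and 4 alone (0.231). The counts of these lists stand beside 3.54 to 4.17% of all genes higher and 2.37 to 2.41% lower at 1 h, and 16.2 to 16.8% higher and 15.6 to 16.8% lower at 6 h.

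**Figure D4:**
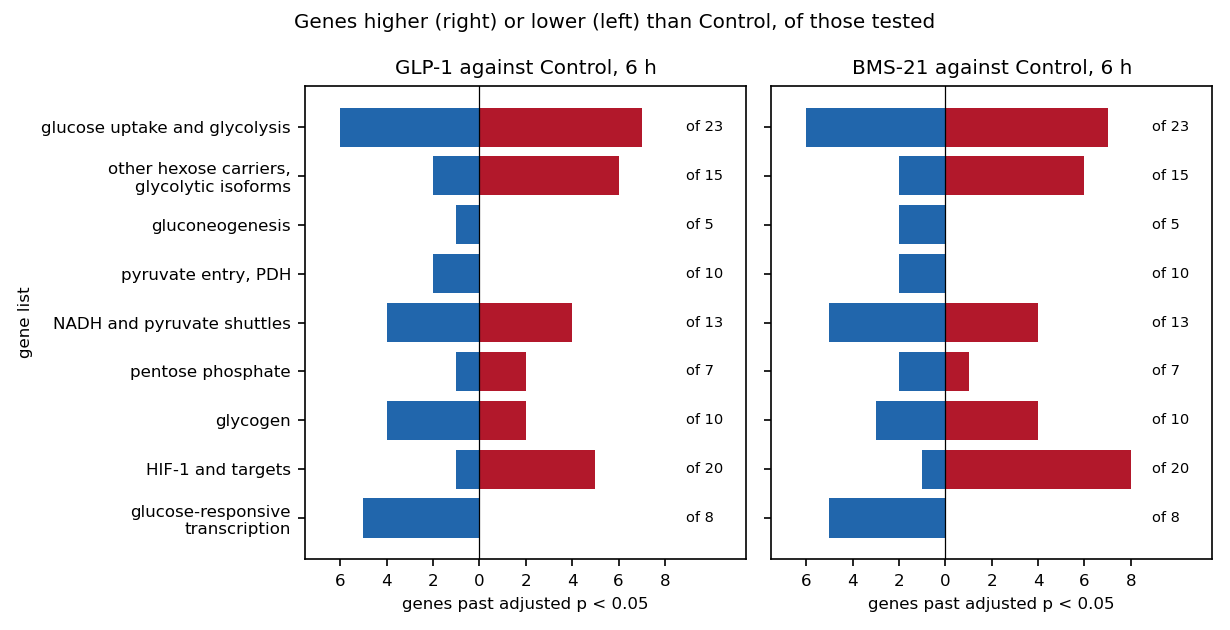
Number of genes past an adjusted p below 0.05 in limma at 6 h (horizontal axis), higher to the right of 0 and lower to the left, in the glycolytic set and the 8 neighbouring lists, for GLP-1 (left panel) and BMS-21 (right panel); the number tested stands at the right. The glycolytic set has 7 higher and 6 lower of 23 for each treatment, and glucose-responsive transcription has 5 lower of 8 for each.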

How the data were processed

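RNA of INS-1 cells was sequenced with a kit that, per the labels' protocols, keeps no strand. The submitters' processing notes name the rat build Rnor_5.0 and, without roles, TopHat2 2.0.12, Bowtie2 2.2.3.0, SAMtools 0.1.19.0, Subread, DESeq and DESeq2 1.6.3. The 6 deposited tables, each covering a pair of groups sampled at the same time, hold read counts that the authors divided by library size factors (unit: signal), set separately in every table. All values (100%, tolerance 0.001) were whole multiples of 1 step per library, which gave back the reads.

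Within each table, log2(normalised count + 1) was tested in limma 3.58.1 under R 4.3.3, with the trend and robust settings and a minimum mean of 10 across its 8 libraries, two-sided, with Benjamini-Hochberg adjusted p under 0.05 over all genes tested. Folds are on that scale and understate changes of low counts. For Control at 6 h against 1 h and for the interactions, the recovered reads of all 24 libraries went into edgeR 4.0.16, by its quasi-likelihood test after TMM scaling and filterByExpr. Printed levels are reads scaled by TMM. Alternatives were pseudocounts of 0.5 and 5, other filters and scalings, edgeR, DESeq2 1.42.0, 1 fit over 24 libraries, the replicate block, replicates 1 and 2 or 3 and 4 alone, and leaving out each library.

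Over 10799 genes with a mean of at least 50, libraries of the same replicate number correlated by 0.125 to 0.406 after group means were removed (24 pairs), so the numbers were taken to pair the libraries. Over the 12693 genes with a mean of at least 10 the range was 0.0693 to 0.243. The first component (25.8% of the variance) separated every library of replicates 1 and 2 from every one of 3 and 4. No library duplicated another of its own group (chi-squared over degrees of freedom 1.28 to 5.20 in 36 pairs), and pairs across groups were not examined. The fits were tested on simulated data.

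Genes were matched by identifier, with symbols from the tables (Pdk2 lacks one in 2 of them). Slc2a3, Tpi1, Gapdh, Eno2, Pkm, Ldha and G6pc2 had no match by symbol. Every library is given for members past the threshold against Control with a log2 change of at least 0.3, and for a few chosen genes; other lists give up to 3 genes by adjusted p. The members, lists and this rule were chosen with earlier results of these data known. Upstream sequences are from RefSeq (GRCr8).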

Additional observations from a re-analysis of the deposited data

Results flagged for a closer look

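Of the 138 groups of 4 libraries examined (23 genes in 6 groups), 2 held a library far from the other 3, and chance alone gives about 1 in 20. In the GLP-1 group at 6 h, replicate 2 had 22.2 scaled counts of Slc16a3, against 18.0 to 18.2 in the other 3 libraries, and 81.8 of Pfkfb4, against 49.9 to 55.0.

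The response at 6 h differed from that at 1 h, by the interaction test in edgeR, for 9 of the 23 genes with GLP-1. The log2 differences were -0.69 ± 0.05, adjusted p = 9.94e-14 for Slc2a2, -1.75 ± 0.18, adjusted p = 5.21e-07 for Ldhb, -0.58 ± 0.10, adjusted p = 0.000268 for Pklr, -0.69 ± 0.14, adjusted p = 0.000454 for Pdk2 and -0.57 ± 0.15, adjusted p = 0.0112 for Pfkfb3. On the positive side they were 0.36 ± 0.08, adjusted p = 0.00139 for Aldoa, 0.42 ± 0.09, adjusted p = 0.00198 for Pfkp, 0.19 ± 0.04, adjusted p = 0.00269 for Pgam1 and 0.59 ± 0.20, adjusted p = 0.0461 for Slc2a1. In replicates 1 and 2 alone Aldoa no longer passed (0.103), and in replicates 3 and 4 alone Pdk2 (0.0866) and Slc2a1 (0.178) did not.

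With BMS-21 the same test passed for 11 genes. The negative differences were -0.72 ± 0.05, adjusted p = 1.71e-14 for Slc2a2, -1.61 ± 0.18, adjusted p = 1.24e-06 for Ldhb, -0.65 ± 0.10, adjusted p = 5.93e-05 for Pklr, -0.66 ± 0.14, adjusted p = 0.00058 for Pdk2 and -0.69 ± 0.23, adjusted p = 0.0309 for Pfkfb4. The positive ones were 0.63 ± 0.09, adjusted p = 1.23e-05 for Pfkp, 0.51 ± 0.08, adjusted p = 2.11e-05 for Aldoa, 0.25 ± 0.04, adjusted p = 7.36e-05 for Pgam1, 0.78 ± 0.20, adjusted p = 0.00748 for Slc2a1, 0.37 ± 0.10, adjusted p = 0.0102 for Pfkl and 0.18 ± 0.05, adjusted p = 0.0165 for Pgk1. In replicates 1 and 2 alone Pfkl (0.0578), Aldoa (0.0573) and Pfkfb4 (0.487) no longer passed, and in replicates 3 and 4 alone Slc2a1 (0.0770) and Pdk2 (0.0517) did not. All called values kept their direction in replicates 1 and 2 alone and in replicates 3 and 4 alone.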

How the results depend on the processing

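No gene of the glycolytic set that passed changed direction under any alternative run, and none was called in the opposite direction. With the replicate block 1513 genes were called for GLP-1 and 1551 for BMS-21 at 1 h, 7 and 6 of them members, and 85 and 217 genes for BMS-21 against GLP-1 at 1 h and 6 h, 2 and 5 of them members. The block moved no other call of a member beyond those named in the results. A library correlated best with its own number in 22 of 24 cases. For BMS-21 at 1 h, 4 members were called with DESeq2, with 1 fit over 24 libraries, and in replicates 1 and 2 or 3 and 4 alone, the last with 497 genes called in all. For BMS-21 against GLP-1 at 6 h, 1 gene was called at a mean of at least 50, 19 with DESeq2, 8 with 1 fit over 24 libraries, 37 in replicates 1 and 2 alone (2 members) and 39 in replicates 3 and 4 alone (1 member), and 0 without any single library. Leaving out 1 library gave 2 to 4 members for GLP-1 at 1 h, the lowest without GLP-1 replicate 1 or 4. Scaling by library totals moved the median log2 change of all genes at 6 h to -0.05 (GLP-1) and -0.06 (BMS-21). The causes were not tested. The members with the fewest reads, and so the most limited by depth, were Pfkfb1, Slc16a3, Hk1 and Pfkfb4.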

Other observations

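Of the 8 matched beta cell markers, GLP-1 raised 2 and lowered 3 at 6 h, where 16.2% of all genes were higher and 15.6% lower, and BMS-21 raised 3 and lowered 3, where 16.8% were higher and 16.8% lower. At 1 h the counts were 2 raised and 1 lowered for GLP-1, where 4.17% of all genes were higher and 2.41% lower, and 3 and 1 for BMS-21, where 3.54% were higher and 2.37% lower. Ins1, the rat insulin 1 gene, averaged 125052 ± 3801 scaled counts with GLP-1, 129711 ± 10331 with BMS-21 and 105741 ± 1283 in Control at 6 h (SD, n = 4 each), and reads shared with the near-identical Ins2 cannot be assigned with certainty. Of the other marker lists at 6 h, 1 duct gene (Krt7) was lower with each treatment, while at 1 h another (Sox9) was higher with each, 1 other islet endocrine gene was higher with BMS-21 at 6 h, and at that time the only acinar gene tested (Ctrb1) and the only stromal gene tested (Pdgfra) passed in limma with neither, with Pdgfra called for GLP-1 in DESeq2.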
